A study of Homo sapiens with 12 samples.

Results

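The nuclear-encoded genes of the respiratory chain were followed in DLD1, an established human colon cancer cell line, after 1 h with TCDD, Kyn or CH, each at 10 µM, or with DMSO. TCDD is a dioxin and a strong agonist of the aryl hydrocarbon receptor (AHR), a transcription factor switched on by ligands. Kyn is kynurenine, a tryptophan metabolite described as an AHR agonist, and CH is CH223191, a synthetic AHR antagonist. DMSO was the vehicle. Each group had 3 poly(A) RNA-seq libraries, 12 in all, and nothing in the labels ties the libraries to separate cultures; p-values therefore measure the spread between these libraries, which may be technical. All groups are the same cell line. The labels name no batch. The extraction protocol names the DMSO, TCDD and Kyn cells but not the CH cells, whose compound and time come from the treatment label and the series title; whether DMSO reached the cells treated with a compound is not stated.

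Members were chosen by a gene symbol rule that uses no difference between groups, but with earlier results of these data known. The rule took the NDUFA, NDUFB, NDUFC, NDUFS and NDUFV genes, SDHA to SDHD, the UQCR genes and CYC1. It also took the COX genes numbered 4 to 8 and the ATP5 genes. Members needed a mean over the 12 libraries of at least 1 CPM (reads scaled to library depth). Of 26485 symbols counted, 87 matched. After removal of 2 pseudogenes and 8 genes under 1 CPM, 77 members remained, namely 36 of complex I, 4 of complex II, 10 of complex III, 10 of complex IV including NDUFA4, 14 of complex V, COX7A2L, a factor that joins complexes III and IV, and the ATP5S and ATP5SL genes, which encode no enzyme subunit. All 77 passed the low-count filter of the test, which kept 13619 genes. The lowest member was UQCRHL at 4.36 CPM, and the highest gene outside the limit that is no pseudogene was ATP5L2 at 0.151 CPM. The symbol rule does not reach COX4I1, NDUFAB1 or CYCS, and 0 of the mitochondrially encoded subunits were counted under their symbols, so the subunits made inside the organelle are not analysed here.

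Complexes I and II pass electrons from NADH and succinate to ubiquinone, complex III passes them to cytochrome c and complex IV to oxygen. Complexes I, III and IV pump protons out of the mitochondrial matrix, and complex V, the ATP synthase, uses their return flow to make ATP. Most subunits are encoded in the nucleus and imported, and their promoters often carry sites for ETS factors, NRF1 and YY1, while AHR binds a short core called the xenobiotic response element (XRE).

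RefSeq promoter windows (GRCh38.p14, from 250 bases before to 50 bases after the annotated start, 300 bases in all) were at hand for 61 of the 77 members. The following 5 are shown because their genes carry the main differences described below (NDUFS7 and NDUFV1 with TCDD, ATP5G1 with CH, ATP5I between Kyn and CH) or serve as the paralog of one that does (ATP5G2). They are written 5′ to 3′ on the gene's strand. Capitals mark the letters searched on both strands: CCGGAAG (ETS), AAGATGG (YY1), GCGCA and GCGC with any base between them (NRF1) and GCGTG (XRE core).
NDUFS7: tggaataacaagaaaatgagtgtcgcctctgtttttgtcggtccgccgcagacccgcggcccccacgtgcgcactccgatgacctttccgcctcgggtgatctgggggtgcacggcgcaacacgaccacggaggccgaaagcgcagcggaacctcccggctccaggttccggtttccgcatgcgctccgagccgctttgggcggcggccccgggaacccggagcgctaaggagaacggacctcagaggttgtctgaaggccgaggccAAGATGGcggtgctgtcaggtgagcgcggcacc
NDUFV1: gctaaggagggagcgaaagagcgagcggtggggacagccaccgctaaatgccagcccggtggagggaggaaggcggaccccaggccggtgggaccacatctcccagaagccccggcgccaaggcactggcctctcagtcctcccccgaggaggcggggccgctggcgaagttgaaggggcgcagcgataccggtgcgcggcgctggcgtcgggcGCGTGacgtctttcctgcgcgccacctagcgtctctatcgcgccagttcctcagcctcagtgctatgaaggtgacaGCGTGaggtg
ATP5G1: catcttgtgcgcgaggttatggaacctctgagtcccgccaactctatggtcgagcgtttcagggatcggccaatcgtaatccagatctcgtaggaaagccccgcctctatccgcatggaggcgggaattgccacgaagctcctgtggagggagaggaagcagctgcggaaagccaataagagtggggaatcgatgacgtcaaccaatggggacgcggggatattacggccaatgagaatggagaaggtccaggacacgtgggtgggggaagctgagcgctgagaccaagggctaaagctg
ATP5G2: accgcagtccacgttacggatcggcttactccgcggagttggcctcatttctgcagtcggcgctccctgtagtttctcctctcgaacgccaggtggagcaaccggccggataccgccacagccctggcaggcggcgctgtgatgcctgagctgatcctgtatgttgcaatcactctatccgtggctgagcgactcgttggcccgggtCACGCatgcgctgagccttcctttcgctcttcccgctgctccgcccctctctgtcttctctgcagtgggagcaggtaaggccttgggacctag
ATP5I: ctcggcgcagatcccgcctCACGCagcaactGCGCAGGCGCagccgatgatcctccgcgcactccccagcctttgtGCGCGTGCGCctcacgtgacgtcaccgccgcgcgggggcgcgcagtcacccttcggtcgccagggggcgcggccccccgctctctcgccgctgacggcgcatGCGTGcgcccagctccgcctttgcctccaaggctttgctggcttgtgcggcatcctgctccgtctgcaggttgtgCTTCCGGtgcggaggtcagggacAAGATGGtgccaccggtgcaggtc

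The windows lie at chr19:1383657-1383956 (NDUFS7, + strand), chr11:67606686-67606985 (NDUFV1, + strand), chr17:48892537-48892836 (ATP5G1, + strand), chr12:53676034-53676333 (ATP5G2, - strand) and chr4:674227-674526 (ATP5I, - strand). Distances from the start site are to the leftmost letter as printed. The NDUFS7 window held the YY1 letters 17 bases after the start (these letters include atg) and no ETS, NRF1 or XRE letters. NDUFV1 held the XRE core 36 bases before and 40 bases after its start, ATP5G2 held it 43 bases before its start, and ATP5G1 held none of the 4 motifs. ATP5I held all 4, with 2 NRF1 matches and 3 XRE matches, of which 1 pair overlaps. Over the 61 member windows, 31.1% held the ETS letters, 29.5% the YY1 letters, 24.6% the NRF1 letters and 49.2% the XRE core. In all 15064 windows of the table the shares were 14.9%, 6.62%, 8.99% and 45.6%. The YY1 letters lay after the start in 13 of the 61 members (21.3%) and in 3.36% of all windows. These motif results are letter matches in the windows at hand, a description of sequence and not of binding. The genes of the other main results lie, in GENCODE 44 on GRCh38, at chr11:68030617-68036644 (NDUFS8, + strand), chr5:140638740-140647771 (NDUFA2, - strand), chr19:1241746-1244825 (ATP5D, + strand), chrX:77899440-77907376 (COX7B, + strand), chr2:175176258-175181710 (ATP5G3, - strand) and chr5:132866630-132868847 (UQCRQ, + strand). Their counts are over exons, and exons of NDUFA2 overlap those of IK and TMCO6, and exons of UQCRQ those of GDF9.

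The libraries held 21397703 to 28247146 reads on genes. Alignments in more than 1 place made up 3.27 to 3.91% in the TCDD libraries, 2.88 to 3.07% in the Kyn libraries, 2.66 to 3.02% in the CH libraries and 2.63 to 3.07% in the DMSO libraries. The TCDD libraries thus lay above all others; such reads stay out of the counts, 46 members have annotated pseudogenes, and the part of this in the TCDD results was not tested. The labels were checked with CYP1A1, the classical AHR target, which had 435, 438 and 409 CPM with TCDD, 9.16, 11.2 and 10.1 CPM with Kyn, 0.396, 0.428 and 0.736 CPM with CH, and 3.05, 3.29 and 3.30 CPM in DMSO. The 4 groups did not overlap in this gene. In a list of 5 AHR targets all rose with TCDD and all fell with CH. With Kyn CYP1A1 and ALDH1A3 (0.63, adjusted p = 3.5e-06) rose, while CYP1B1 (-0.37, adjusted p = 2.4e-07) and TIPARP (-0.21, adjusted p = 0.027) fell. The summed level of the 5 genes was 158 to 170.5 CPM with Kyn, against 188 to 189 CPM in DMSO. Of 12 colon epithelial markers 9 had at least 1 CPM, while LGALS4, CDX1 and CEACAM5 had group means of at most 0.571 CPM. The sums of the 12 per library were 8999 to 9186 CPM with TCDD, 9723 to 10036 CPM with Kyn, 9423 to 9672 CPM with CH and 9220 to 9747 CPM in DMSO. The TCDD sums lay just below all others, but the genes went different ways. KRT8 made up the most of the sum (4387 CPM with TCDD, against 4661 CPM in DMSO), KRT18 (-0.12, adjusted p = 0.021) and CDH1 (-0.13, adjusted p = 0.0092) fell with TCDD, and CDX2 (0.41, adjusted p = 1.3e-10) and CDH17 (0.38, adjusted p = 4e-08) rose. The part of this in the results below was not tested. By contrast, 8 fibroblast markers summed to at most 1.30 CPM, 9 immune markers to at most 17.0 CPM and 8 endothelial markers to at most 4.11 CPM. A mean of at least 1 CPM was reached by 0 of the fibroblast, 3 of the immune and 1 of the endothelial markers. DCN, CD3D and KDR were at 0 in every group. The sums of these other cell types overlapped between all groups.

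At 1 h the respiratory chain genes stood close to their DMSO level with all 3 compounds. Summed over the 74 subunit genes of complexes I to V, the libraries held 7900.5 ± 106 CPM with TCDD, 8265 ± 275 CPM with Kyn, 8018 ± 186 CPM with CH and 8134 ± 259 CPM in DMSO (mean ± SD, n = 3 each). The ratios to DMSO were 0.971 with TCDD, 1.02 with Kyn and 0.986 with CH. None of these pooled sums differed from DMSO by more than the SD of the DMSO libraries, and the ranges overlapped in each case. Taken by complex, the complex I sum was 2210 ± 48.4 CPM with TCDD, against 2309 ± 77.4 CPM in DMSO (ratio 0.957). That gap was larger than the DMSO SD, though the ranges overlapped. With Kyn and CH, and in complexes II to V with every compound, the gaps stayed within the DMSO SD. The largest absolute log2 fold change of any member against DMSO was 0.23. In bulk RNA, fewer cells and less RNA per cell cannot be told apart, and CPM is a share of the library, so a change of all genes together would not be seen.

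The question for each compound was which members differed from DMSO and how far the rest could have moved. A gene was called at a Benjamini-Hochberg adjusted p under 0.05 in edgeR's quasi-likelihood test over all 13619 genes. For the fits further below that leave out a library or remove length and GC trends, the share of all genes called is not given. Moves of the member counts in those fits are therefore not set against a background. With TCDD 7 members were called (9.09%), against 11.7% of all genes. With Kyn 0 were called, against 0.294%, and with CH 6 (7.79%), against 32.8%. The 3 comparisons share the DMSO libraries. In all, 12 members were called in at least 1 of them, 1 in both the TCDD and the CH comparison, and 65 in none. The matching shares of all genes are not given here, so these joint counts are not set against a background. The other 3 comparisons set compounds against each other: 13 members (16.9%) were called between TCDD and Kyn against 9.19% of all genes, 12 (15.6%) between TCDD and CH against 37.1%, and 15 (19.5%) between Kyn and CH against 33.0%. A joint test of the 4 groups called 24 members (31.2%), against 43.6% of all genes, with 12 in complex I, 0 in complex II, 3 in complex III, 4 in complex IV and 5 in complex V.

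**Figure D1:**
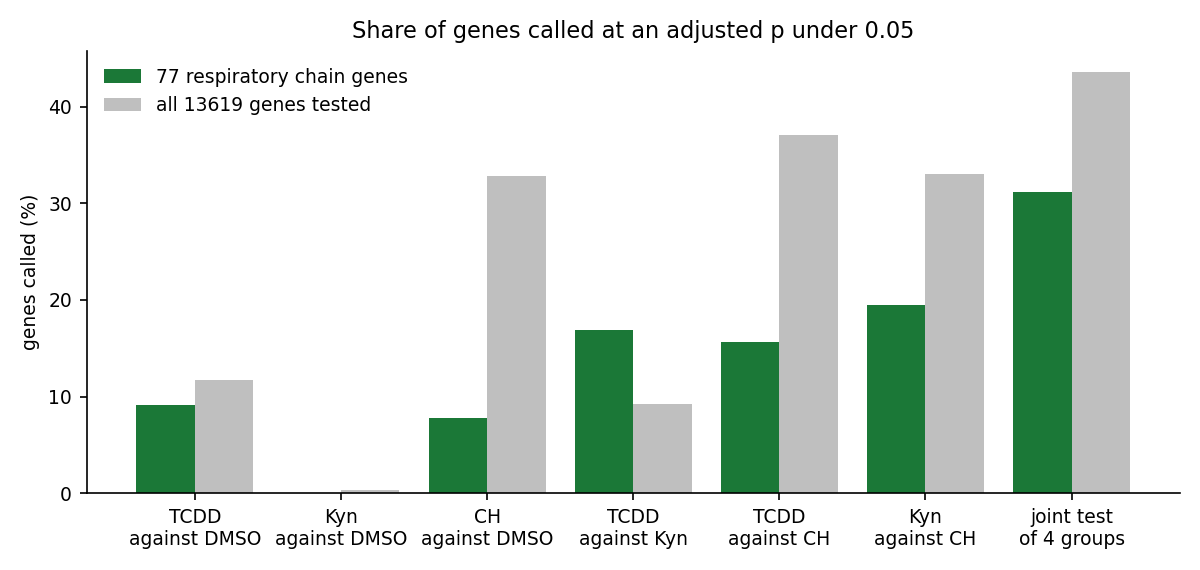
Bars give the percent of the 77 respiratory chain genes (green) and of all 13619 genes tested (grey) called at an adjusted p under 0.05 by edgeR's quasi-likelihood test, for 6 comparisons and a joint test of the 4 groups. With CH 7.79% of the members were called against 32.8% of all genes, and between TCDD and Kyn 16.9% against 9.19%.

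The precision of the fit allows limits on what was not called. The 95% interval of the fold change lay wholly within 1.2-fold of DMSO, in either direction, for 71 of 77 members with TCDD, 72 with Kyn and 72 with CH. The same held for 59.5%, 67.4% and 49.2% of all genes tested. Members had to reach 1 CPM, while the genes tested include some below it, such as NDUFA4L2 at 0.363 CPM. These shares therefore do not compare genes of like level. The members outside this limit were ATP5D, COX7B, NDUFA2, NDUFB2, NDUFS7 and UQCRHL with TCDD, ATP5S, NDUFB1, NDUFB2, UQCRHL and UQCRQ with Kyn, and ATP5G1, ATP5J2, NDUFB2, NDUFC2 and UQCRHL with CH. UQCRHL, NDUFC2, ATP5S and NDUFB2 had the fewest reads of these, with 4.36, 5.55, 9.35 and 12.9 CPM over the 12 libraries.

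**Figure D2:**
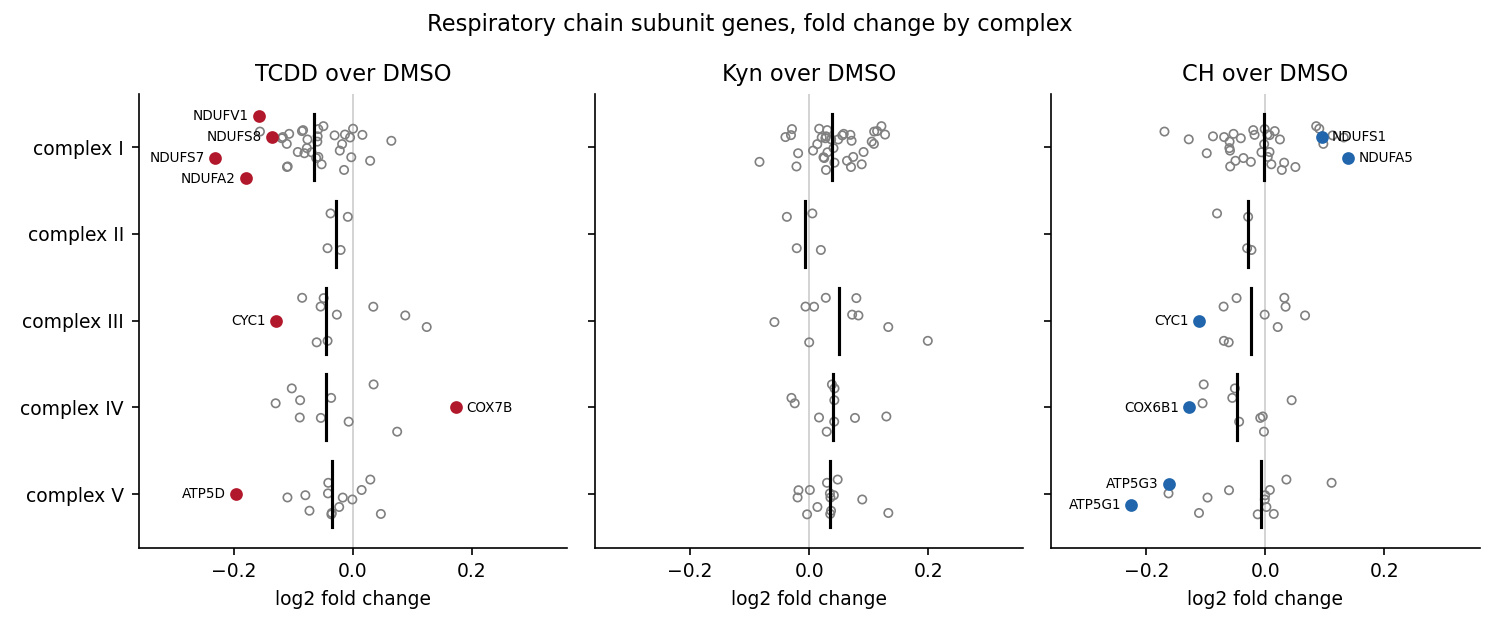
Each point is a subunit gene, placed by its log2 fold change over DMSO (x axis) in its complex (rows), for TCDD, Kyn and CH. Filled and named points were called, open points were not, and black lines mark each complex's median; the vertical spread within a row carries no value. No gene lies further than 0.23 from 0, and none is filled with Kyn.

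TCDD was compared with DMSO to see the response to a strong AHR agonist. Of the 77 members 1 rose, COX7B, and 6 fell: NDUFS7, NDUFA2, NDUFV1 and NDUFS8 of complex I, CYC1 of complex III and ATP5D of complex V. Among all genes 5.91% rose and 5.83% fell. The median log2 fold change was -0.05 over the members and 0.00 over all genes, and 62 members lay below 0 and 15 above. Libraries did not overlap between TCDD and DMSO for 19 members (24.7%), against 27.8% of all genes. The count of members that fell was 2 without DMSO replicate 1 or TCDD replicate 3 and 12 without DMSO replicate 2, and 0 rose without DMSO replicate 3 or TCDD replicate 3.

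Complex I had 4 of 36 genes called lower and 0 higher, with a median log2 fold change of -0.07. NDUFS7, which holds the last iron-sulfur cluster before ubiquinone, had 52.9, 54.1 and 50.1 CPM with TCDD, against 66.7, 57.1 and 60.6 CPM in DMSO. Every TCDD library lay below every DMSO library, and the DMSO libraries spread more widely than those with TCDD. This gave a log2 fold change of -0.23 ± 0.05 (SE, adjusted p = 0.0016), and the call was kept when each of the 12 libraries was left out in turn (highest adjusted p = 0.037). NDUFV1, which binds NADH and takes up its electrons, had 109, 114 and 107 CPM with TCDD, against 129, 116 and 123 CPM in DMSO. The groups did not overlap, but the highest TCDD library lay next to the lowest DMSO library. TCDD over DMSO came to -0.16 ± 0.04 (SE, adjusted p = 0.010). NDUFS8, another iron-sulfur subunit on the path to ubiquinone, had 75.1, 73.9 and 72.2 CPM with TCDD, against 82.0, 80.5 and 80.5 CPM in DMSO. Its libraries were tight in both groups and clearly apart, and the log2 fold change was -0.14 ± 0.04 (SE, adjusted p = 0.018). NDUFA2, an accessory subunit of the peripheral arm, had 36.1, 42.2 and 36.9 CPM with TCDD, against 44.9, 41.5 and 44.2 CPM in DMSO, so that 1 TCDD library reached into the DMSO range (log2 fold change -0.18 ± 0.05 SE, adjusted p = 0.023). The NDUFV1 and NDUFS8 calls ended without DMSO replicate 1 or TCDD replicate 3 (highest adjusted p 0.11 and 0.10), and that of NDUFA2 also without DMSO replicate 3 or TCDD replicate 1 (highest 0.16).

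NDUFS7, NDUFV1 and NDUFS8 are among the 7 nuclear core subunits, the ones shared with the bacterial enzyme that carry out electron transfer. Of the core genes 3 of 7 fell and of the 29 accessory genes 1 fell, a split chosen after the values were seen. The medians hardly differed, with -0.06 for the core and -0.07 for the accessory genes. NDUFS1, the largest of the nuclear core subunits, stood at 121, 122 and 120.4 CPM with TCDD, against 122, 123 and 119 CPM in DMSO, a log2 fold change of 0.00 with an adjusted p of 0.97. With length and GC trends removed, as described below, it was called lower at -0.11 (adjusted p = 0.020).

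Of the 4 complex II genes 0 were called with TCDD, and all lay between -0.04 and -0.01 on the log2 scale. SDHA, the flavoprotein that oxidises succinate, had a log2 fold change of -0.04, SDHB, the iron-sulfur subunit, -0.04, and the membrane anchors SDHC and SDHD -0.01 and -0.02. In complex III, CYC1, the heme subunit that hands electrons to cytochrome c, had 168, 175 and 162 CPM with TCDD, against 196, 174 and 182 CPM in DMSO. The groups overlapped, since 1 DMSO library lay just below the highest TCDD library. The log2 fold change was -0.13 ± 0.04 (SE, adjusted p = 0.024), and the call ended in 4 of 12 fits that left out a library, those without DMSO replicate 1, DMSO replicate 3, TCDD replicate 1 or TCDD replicate 3 (highest adjusted p = 0.25). The other 9 genes of complex III were not called.

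COX7B, a small structural subunit of complex IV, had 62.1, 60.7 and 66.7 CPM with TCDD, against 57.5, 55.4 and 55.2 CPM in DMSO. All TCDD libraries lay above all DMSO libraries, at a log2 fold change of 0.17 ± 0.05 (SE, adjusted p = 0.016). The call ended without DMSO replicate 3 or TCDD replicate 3 (highest adjusted p = 0.17). The other 9 genes of complex IV ranged from -0.13 in COX8A, another small subunit (adjusted p = 0.074), upward, and their complex's median was -0.05. In complex V, ATP5D, the delta subunit of the rotating central stalk, had 110.3, 112 and 107 CPM with TCDD, against 130.1, 121 and 126 CPM in DMSO. The groups stood apart, with both spreads narrow, at a log2 fold change of -0.20 ± 0.04 (SE, adjusted p = 0.0013). The call was kept in each of the 12 fits with a library left out (highest adjusted p = 0.015). The complex V median was -0.04, with ATP5F1, a subunit of the peripheral stalk, highest at 0.05.

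**Figure D3:**
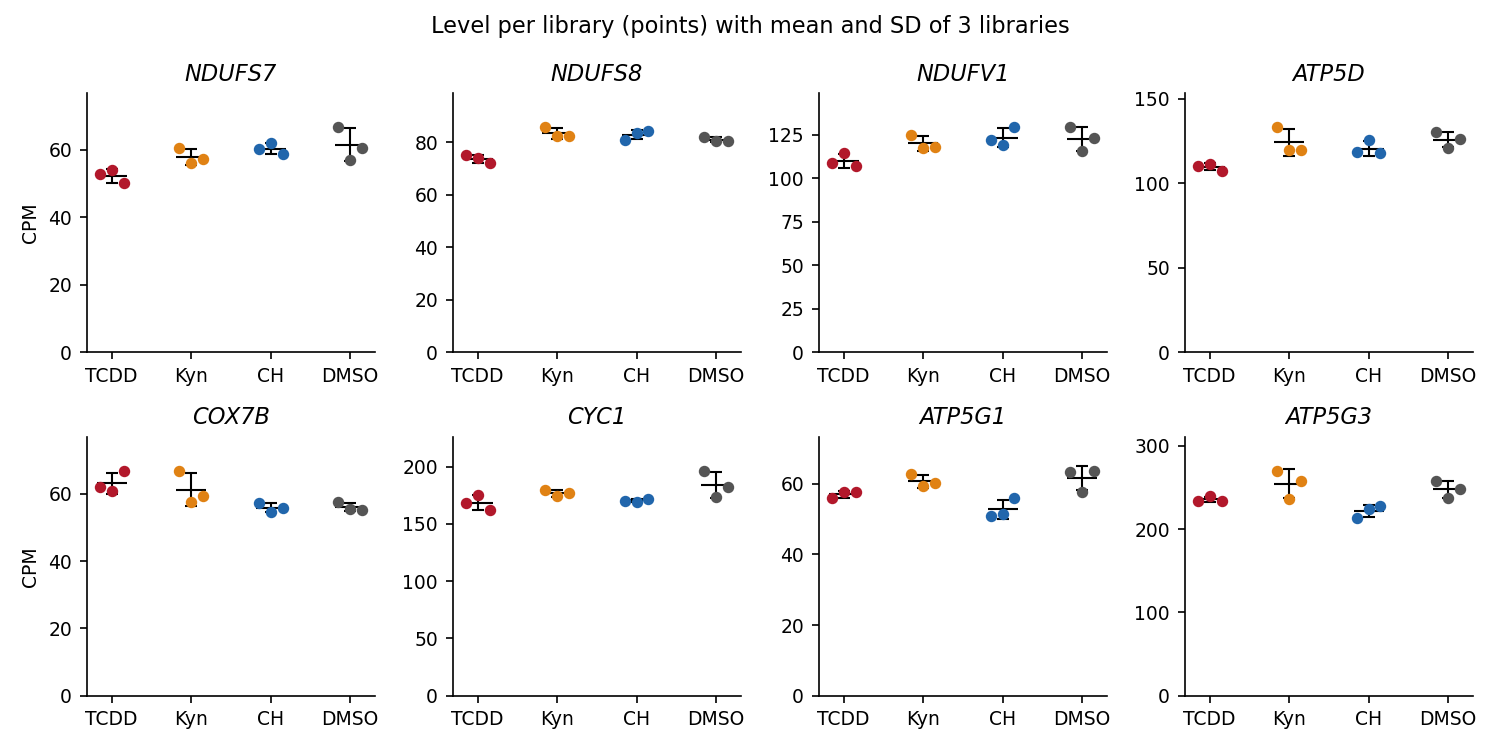
CPM of 8 named genes in each library (points), with mean and SD of 3 libraries, for TCDD, Kyn, CH and DMSO; each y axis starts at 0. NDUFS7, NDUFS8, NDUFV1 and ATP5D are lowest with TCDD, ATP5G1 and ATP5G3 are lowest with CH, and COX7B has the highest mean with TCDD.

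Of the 6 members that fell with TCDD, 5 share a sequence property that the choice of members did not use, and NDUFA2 does not. Of the 8 members whose transcript holds over 60% G and C, 5 fell with TCDD (ATP5D, NDUFS7, NDUFS8, CYC1 and NDUFV1), a limit set after the values were seen. Of all 2078 genes tested above that limit 16.3% fell with TCDD, against 4.05% of the other genes with a transcript model. Across the 77 members the log2 fold change with TCDD ran against GC content with r = -0.632 and rho = -0.606, and across 13194 genes with r = -0.202 and rho = -0.368. Genes share the libraries and are not independent replicates. When trends with GC content and transcript length were removed in each library, r over the members was -0.115, and NDUFS7 (-0.15, adjusted p = 0.017), NDUFV1 (-0.10, 0.046), NDUFA2 (-0.18, 0.007) and COX7B (0.14, 0.042) were still called. ATP5D (-0.10, 0.077), NDUFS8 (-0.07, 0.29) and CYC1 (-0.07, 0.17) were not. The changes of NDUFS7, NDUFV1, ATP5D, NDUFS8 and CYC1 were thus smaller by over 1.5 times on the log2 scale, and 9 members were called in all, 4 of them shared with the fit without this step. The part of GC content in the TCDD differences was not tested beyond this comparison.

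**Figure D4:**
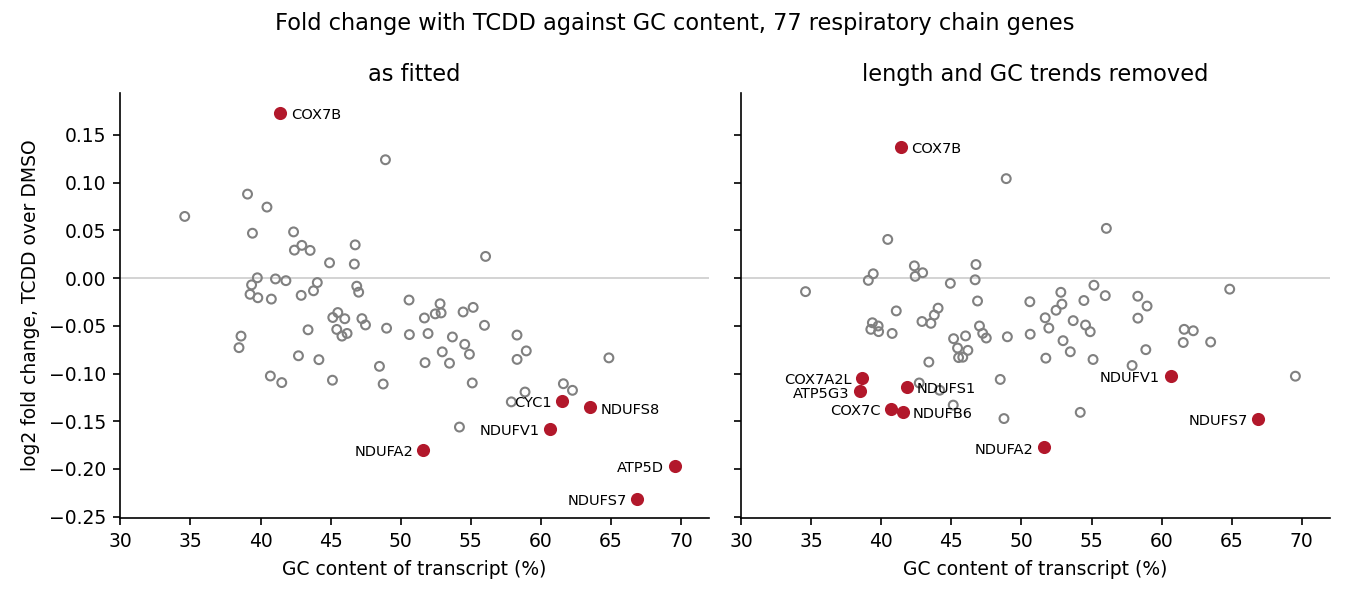
Log2 fold change of TCDD over DMSO (y axis) against the GC content of the transcript (x axis, %) for the 77 members, as fitted on the left and with length and GC trends removed on the right; filled and named points were called. On the left 5 of the 6 genes called lower lie above 60% GC, and on the right NDUFS7 and NDUFV1 are the called genes above that limit.

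Kyn was compared with DMSO to see the response to a metabolite described as an AHR agonist. No member rose or fell by edgeR's test, and DESeq2 also called 0, against 0.314% of all genes it tested. At an unadjusted p under 0.05 there were 7 members (9.09%), against 6.70% of all genes, and each of them had a positive log2 fold change. The median log2 fold change was 0.03 over the members and 0.00 over all genes, with 60 members above 0 and 17 below. Libraries did not overlap between Kyn and DMSO for 4 members (5.19%), against 11.4% of all genes. The background shares called were 0.154% higher and 0.140% lower.

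The highest member was UQCRQ, a small subunit of complex III, with 36.9, 31.3 and 31.7 CPM with Kyn, against 28.6, 26.5 and 32.0 CPM in DMSO. Kyn replicate 1 stood well above the other 5 libraries, and the groups overlapped (log2 fold change 0.20 ± 0.06 SE, adjusted p = 0.26). NDUFB4, an accessory subunit of the membrane arm of complex I, had 100.5, 91.1 and 95.2 CPM with Kyn, against 88.5, 85.4 and 88.7 CPM in DMSO. Here the libraries did not overlap, although the adjusted p was 0.28 at a log2 fold change of 0.13. ATP5I, the e subunit of the membrane part of complex V, had 58.8, 48.5 and 52.1 CPM with Kyn, against 49.4, 44.6 and 51.6 CPM in DMSO, which overlap (0.13, adjusted p = 0.61). COX7B was at 0.13 (adjusted p = 0.52). The lowest subunit gene was NDUFS7 at -0.08 (adjusted p = 0.82). By complex the medians were 0.04 for complex I, -0.01 for complex II, 0.05 for complex III, 0.04 for complex IV and 0.04 for complex V.

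Kyn replicate 1 stood apart from the other Kyn libraries in the members as a whole. Taken as the median log2 CPM minus the mean of the 12 libraries, the members lay at -0.05, -0.01 and -0.05 in the TCDD libraries, at 0.10, 0.00 and 0.01 in the Kyn libraries, at -0.05, -0.02 and 0.03 in the CH libraries and at 0.04, -0.05 and 0.04 in the DMSO libraries. Without Kyn replicate 1 the members' median for Kyn over DMSO was 0.01, and without DMSO replicate 2 it was 0.00. Other genes with transcripts under 1000 nt moved alongside, at 0.09 in Kyn replicate 1 and at -0.04 in DMSO replicate 2. Members have short transcripts, with a median of 857 nt against 3224.5 nt over all genes with a model. In the 43 members under 1000 nt the median log2 fold change over DMSO was -0.07 with TCDD, 0.04 with Kyn and -0.04 with CH. In 942 other genes under 1000 nt it was -0.04, 0.02 and -0.03, and in the 34 longer members -0.02, 0.03 and -0.01. The part of transcript length in the differences between libraries was not tested.

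**Figure D5:**
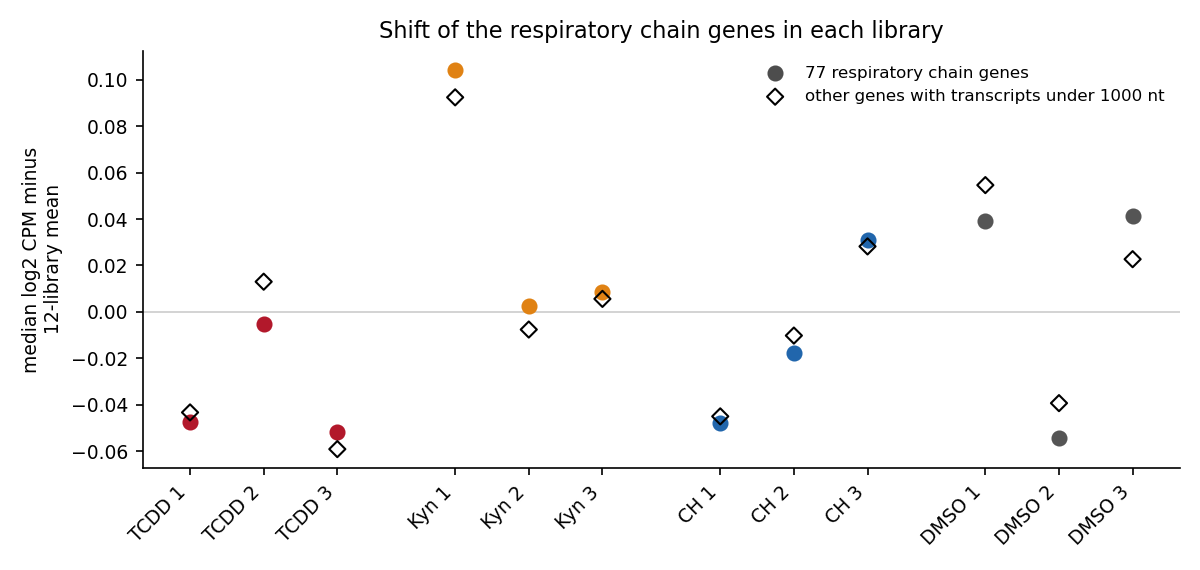
Median log2 CPM minus the mean of the 12 libraries (y axis) in each library (x axis), for the 77 members (filled circles, coloured by group) and for other genes with transcripts under 1000 nt (open diamonds). The members are highest in Kyn replicate 1, at 0.10, and lowest in DMSO replicate 2, at -0.05, and the diamonds lie close to the circles.

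CH was compared with DMSO to see the response to an AHR antagonist. Of the 77 members 4 fell, ATP5G1 and ATP5G3 of complex V, COX6B1 of complex IV and CYC1 of complex III, and 2 rose, NDUFA5 and NDUFS1 of complex I. Among all genes 16.9% fell and 15.9% rose. The members' median log2 fold change was -0.02, against 0.00 over all genes, with 50 members below 0 and 27 above. Of the members 11 (14.3%) had libraries that did not overlap between CH and DMSO, against 43.4% of all genes. The count of members that fell was 2 without DMSO replicate 1, CH replicate 1 or CH replicate 2, 8 without CH replicate 3 and 13 without DMSO replicate 2, and 1 rose without DMSO replicate 3, CH replicate 2 or CH replicate 3.

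The 3 ATP5G genes encode the same mature subunit c, which forms the proton-driven ring of the ATP synthase. ATP5G1 had 50.9, 51.5 and 56.0 CPM with CH, against 63.3, 57.8 and 63.7 CPM in DMSO. All CH libraries lay below all DMSO libraries (-0.22 ± 0.05 SE, adjusted p = 0.00024). ATP5G3 had 213, 224 and 228 CPM with CH, against 258, 238 and 249 CPM in DMSO, again without overlap (-0.16 ± 0.04 SE, adjusted p = 0.0016). Both calls were kept in each of the 12 fits with a library left out (highest adjusted p 0.0042 and 0.022). ATP5G2 had 72.6, 72.6 and 70.3 CPM with CH, against 73.7, 72.5 and 69.6 CPM in DMSO, with libraries of both groups mixed and a log2 fold change of 0.00 (95% interval -0.09 to 0.09, adjusted p = 1.0). Whether ATP5G1 and ATP5G3 differ from ATP5G2 in their response was not tested. Summed over the 3 genes, subunit c transcripts stood at 346 ± 8.80 CPM with CH, against 382 ± 13.4 CPM in DMSO (SD, n = 3 each), with 361 ± 2.59 CPM with TCDD and 389 ± 22.4 CPM with Kyn. The ATP5G1 window printed above holds none of the 4 motifs and that of ATP5G2 holds 1 XRE core, as do 45.6% of all windows. For ATP5G3 no window was at hand, and the part of these letters in the CH differences was not tested.

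COX6B1, a small subunit on the outer face of complex IV, had 88.6, 92.2 and 95.3 CPM with CH, against 104, 96.2 and 102 CPM in DMSO. The groups did not overlap, by a narrow margin (-0.13 ± 0.04 SE, adjusted p = 0.021). CYC1 had 170.02, 169 and 172 CPM with CH, against the DMSO values given above, all of which were higher (-0.11 ± 0.04 SE, adjusted p = 0.023). NDUFA5, an accessory subunit of the peripheral arm of complex I, had 53.2, 54.2 and 56.6 CPM with CH, against 49.8, 50.1 and 48.9 CPM in DMSO. Its CH libraries were all higher (0.14 ± 0.04 SE, adjusted p = 0.012). NDUFS1 had 130.3, 130.03 and 128 CPM with CH, against 122, 123 and 119 CPM in DMSO, also without overlap (0.09 ± 0.03 SE, adjusted p = 0.033). The NDUFA5 call ended without CH replicate 3 (adjusted p = 0.063). Calls of COX6B1 and NDUFS1 ended without DMSO replicate 1, DMSO replicate 3, CH replicate 1 or CH replicate 2 (highest 0.12 for each), and that of CYC1 without DMSO replicate 1, CH replicate 1 or CH replicate 2 (highest 0.23).

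With length and GC trends removed, 13 members were called with CH, 11 lower and 2 higher, and 5 were shared with the fit without this step. NDUFS1 was not among them (adjusted p = 0.23). The share of all genes called in that fit is not given, so the higher count is not set against a background. In complex II 0 genes were called, and SDHA had the lowest value at -0.08 (adjusted p = 0.071). The lowest member of complex I was NDUFB2, an accessory subunit of its membrane arm, at -0.17 (adjusted p = 0.18), which had few reads and a wide interval.

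The same members were set side by side over the 3 compounds. For NDUFS7 the log2 fold change over DMSO was -0.23 with TCDD, -0.08 with Kyn and -0.02 with CH, and for NDUFS8 it was -0.14, 0.04 and 0.03. For ATP5D it was -0.20, -0.02 and -0.06, and for COX7B 0.17, 0.13 and 0.00. For ATP5G1 it was -0.11, -0.02 and -0.22, and for ATP5G3 -0.07, 0.04 and -0.16. Because the DMSO libraries enter all 3, the compounds were also set against each other directly. There NDUFS7 and COX7B were not called between TCDD and Kyn, and ATP5G1 and ATP5G3 were not called between TCDD and CH. With length and GC trends removed ATP5G1 was called between TCDD and CH, higher with TCDD.

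Between TCDD and Kyn 13 members were lower with TCDD and 0 higher, against 4.09% and 5.10% of all genes. They were 9 genes of complex I, UQCRQ and UQCRC1 of complex III, COX5A of complex IV and ATP5D. With length and GC trends removed 17 members were lower, and 8 of the 13 calls were shared; ATP5D (-0.09, adjusted p = 0.14), UQCRC1 (-0.08, 0.097), NDUFB11 (-0.11, 0.092), NDUFS6 (-0.13, 0.051) and NDUFV1 (-0.08, 0.15) were not called. NDUFS8 was still called, at -0.12 (0.038). The median log2 fold change of TCDD over Kyn was -0.09 over the members and 0.00 over all genes, and in complex I all 36 genes lay below 0. It was -0.06 in the 942 other genes with transcripts under 1000 nt, -0.11 in the 43 members under 1000 nt and -0.04 in the 34 longer members. At an unadjusted p under 0.05 there were 33 members (42.9%), against 22.4% of all genes. NDUFS8 had 75.1, 73.9 and 72.2 CPM with TCDD, against 85.8, 82.2 and 82.3 CPM with Kyn, which stand well apart (-0.18 ± 0.04 SE, adjusted p = 0.0020). It was the 1 call of the 13 kept in all 12 fits with a library left out. The count was 2 without Kyn replicate 1, 3 without TCDD replicate 3, 6 without TCDD replicate 1 and 26 without Kyn replicate 2. The share of all genes called in these fits is not given. Without Kyn replicate 1 the members' median was -0.05.

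Between TCDD and CH 10 members were lower with TCDD (18.1% of all genes) and 2 higher (19.0% of all genes). The lower ones included NDUFS8, NDUFS7 and NDUFV1, the accessory subunit NDUFA13, and UQCRC1, a core protein of complex III, and these 5 calls were kept in all 12 fits with a library left out. With length and GC trends removed 10 of the 12 calls were shared, and UQCRC1 (-0.05, adjusted p = 0.16) and ATP5D (-0.04, 0.49) were not called. NDUFS8 was then at -0.10, NDUFS7 at -0.13 and NDUFV1 at -0.09, each smaller by over 1.5 times and still called. NDUFS7 had 52.9, 54.1 and 50.1 CPM with TCDD, against 60.2, 62.1 and 58.7 CPM with CH, without overlap (-0.21 ± 0.05 SE, adjusted p = 0.0013). UQCRC1 had 226, 229 and 223 CPM with TCDD, against 243, 242 and 251 CPM with CH, also apart (-0.12 ± 0.03 SE, adjusted p = 0.0058). The higher ones were COX7B and COX7A2, both small subunits of complex IV. ATP5H, a subunit of the peripheral stalk of complex V, was lower with TCDD at 81.0, 81.7 and 81.5 CPM, against 85.7, 94.5 and 91.3 CPM with CH (-0.15 ± 0.05 SE, adjusted p = 0.011), a call that ended without CH replicate 2 (0.089). The count of lower members was 6 without CH replicate 2. That of higher members was 1 without TCDD replicate 2, TCDD replicate 3 or CH replicate 1, and 4 without Kyn replicate 1, which enters through the shared spread.

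Between Kyn and CH 15 members were higher with Kyn and 0 lower, against 16.6% and 16.4% of all genes. They were 6 genes of complex I, 1 of complex III, 3 of complex IV and 5 of complex V, with a median over all members of 0.05. The median was 0.04 in the 942 other genes with transcripts under 1000 nt, 0.08 in the 43 members under 1000 nt and 0.02 in the 34 longer members. ATP5G3 had 270.2, 236 and 257 CPM with Kyn, against 213, 224 and 228 CPM with CH. The groups did not overlap (0.20 ± 0.04 SE, adjusted p = 0.00016). ATP5G1 had 62.8, 59.3 and 60.1 CPM with Kyn, against 50.9, 51.5 and 56.0 CPM with CH, without overlap (0.21 ± 0.05 SE, adjusted p = 0.00070). UQCRQ (0.27, adjusted p = 0.00086) and ATP5I (0.24, adjusted p = 0.00089) were the other calls kept in all 12 fits with a library left out. For both, Kyn replicate 1 was the highest of the 12 libraries. Without Kyn replicate 1 the counts were 6 higher and 1 lower and the median 0.01, and without CH replicate 1 they were 5 higher and 1 lower.

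Tissue-specific subunit forms were at or near 0 in these cells. COX6A2, COX7B2 and COX4I2 had 0 reads in all 12 libraries, which allows up to 0.00967 CPM over the 310206075 reads (3 counts, counting error only), while COX6A1 and COX7B were members. COX6B2 had 9 reads, COX8C 6 and COX7A1 34, against members COX6B1, COX8A and COX7A2 with levels in every library of 72.4 CPM or more. NDUFA4L2, the counterpart of NDUFA4, had 113 reads. ATP5E, the epsilon subunit of complex V, had 29 reads, and its annotated exons overlap those of TUBB1; exons of 37 members overlap another gene, and the part of shared exons in these counts was not tested. NDUFC2, at 5.55 CPM, overlaps a read-through transcript with KCTD14. Of the members 46 have annotated pseudogenes, and UQCRH and UQCRHL are near copies, so the counts of these genes are uncertain where reads fit more than 1 place.

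Genes around the chain were counted from lists chosen with earlier results known. With Kyn 0 genes were called in each list of assembly factors, mitochondrial ribosomal proteins, regulators, TCA cycle enzymes, carriers and ubiquinone synthesis genes. Only 0.294% of all genes were called with Kyn. Among 76 mitochondrial ribosomal protein genes, which build the ribosome that makes the organelle's own subunits, 8 fell and 2 rose with TCDD (5.83% and 5.91% of all genes) and 21 fell and 4 rose with CH (16.9% and 15.9% of all genes). MRPL41 averaged 51.9 ± 2.37 CPM with TCDD, against 61.4 ± 3.67 CPM in DMSO (log2 fold change -0.24, adjusted p = 0.0015). It averaged 50.2 ± 1.66 CPM with CH (-0.29, adjusted p = 3.3e-05). The lower genes with TCDD numbered 1 without DMSO replicate 1, 15 without DMSO replicate 2, 4 without DMSO replicate 3, 5 without TCDD replicate 1 and 2 without TCDD replicate 3, and those with CH 12 without DMSO replicate 1. The higher genes with TCDD numbered 1 without DMSO replicate 2 or TCDD replicate 2, and those with CH 1 without DMSO replicate 2 and 2 without CH replicate 2.

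Of 21 carriers 9 fell and 0 rose with CH, where 16.9% of all genes fell and 15.9% rose, and 4 fell and 1 rose with TCDD, where 5.83% fell and 5.91% rose. SLC25A25, a carrier of ATP-Mg and phosphate, averaged 26.2 ± 1.65 CPM with CH, against 36.8 ± 1.33 CPM in DMSO (-0.48, adjusted p = 3.9e-08). SLC25A24, of the same carrier type, rose with TCDD to 176 ± 3.97 CPM, against 154 ± 4.02 CPM in DMSO (0.19, adjusted p = 0.00015). The carriers that fell with CH numbered 5 without DMSO replicate 1 or CH replicate 2. Those that fell with TCDD numbered 1 without DMSO replicate 1 or TCDD replicate 3 and 2 without DMSO replicate 3 or TCDD replicate 1. Of 13 ubiquinone synthesis genes 5 rose with CH and 0 fell (15.9% and 16.9% of all genes), led by ADCK3, an atypical kinase needed for ubiquinone synthesis, at 34.2 ± 1.42 CPM against 23.7 ± 0.612 CPM in DMSO (0.53, adjusted p = 1.3e-09). With TCDD 0 of these genes were called, against 11.7% of all genes. COQ5, a methyltransferase of the same pathway, rose with CH as well (0.28, adjusted p = 6.9e-05).

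Of 20 regulators tested 6 fell and 2 rose with CH, where 32.8% of all genes were called, and 2 fell and 2 rose with TCDD, where 11.7% were. TFAM, which packages mitochondrial DNA and takes part in its transcription, averaged 106 ± 3.12 CPM with CH, against 117 ± 2.09 CPM in DMSO (-0.15, adjusted p = 0.0022). HCFC1, a transcriptional cofactor, was at 130 ± 11.4 CPM with CH, against 158 ± 1.62 CPM in DMSO (-0.27, adjusted p = 8.2e-06). POLRMT, the mitochondrial RNA polymerase, fell with both TCDD (-0.16, adjusted p = 0.0040) and CH (-0.13, adjusted p = 0.0084), in comparisons that share the DMSO libraries. The regulators that fell with CH numbered 3 without CH replicate 2, and those that rose 0 without DMSO replicate 1 or CH replicate 1 and 1 without DMSO replicate 2, DMSO replicate 3, Kyn replicate 2, CH replicate 2 or CH replicate 3. With TCDD each direction had 1 without DMSO replicate 1, DMSO replicate 3, TCDD replicate 1 or TCDD replicate 3. Of 22 TCA cycle genes 4 rose and 3 fell with CH, near the 32.8% of all genes called. OGDH of the oxoglutarate dehydrogenase (-0.26, adjusted p = 1e-06) and IDH3A of the NAD-linked isocitrate dehydrogenase (-0.23, adjusted p = 4.1e-06) were among those that fell. IDH1 (0.16, adjusted p = 0.00035) and SUCLG2 (0.19, adjusted p = 0.00054) were among those that rose. The TCA cycle genes that rose with CH numbered 2 without DMSO replicate 1, CH replicate 2 or CH replicate 3. With TCDD 1 rose, against 11.7% of all genes called, and the count was 0 in all fits with a library left out but those without Kyn replicate 1 or CH replicate 3.

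Among proteins of the chain that the symbol rule does not reach, CYCS, cytochrome c itself, had 292, 296 and 307 CPM with CH, against 356, 341 and 343 CPM in DMSO. All CH libraries were lower, by a clear margin (-0.22 ± 0.03 SE, adjusted p = 4.6e-06). With TCDD its log2 fold change was -0.05 (adjusted p = 0.42) and with Kyn -0.02 (adjusted p = 0.97). COX4I1, the main form of a large nuclear subunit of complex IV, was not called with any compound, at -0.06 with TCDD, 0.02 with Kyn and -0.04 with CH. NDUFA4L2 was called higher with CH at few reads, 0.590 ± 0.0766 CPM against 0.282 ± 0.133 CPM in DMSO (adjusted p = 0.040), and was not called without DMSO replicate 3 or any 1 of the CH libraries. As background for the assembly factor lists that follow, 5.83% of all genes fell with TCDD, and with CH 16.9% fell and 15.9% rose. Of 16 complex I assembly factors NDUFAF3 (-0.18, adjusted p = 0.0089) and ECSIT (-0.17, adjusted p = 0.035) fell with TCDD and NDUFAF4 (-0.22, adjusted p = 0.0021) with CH. The count with TCDD was 0 without DMSO replicate 3 and 1 without DMSO replicate 1 or any 1 of the TCDD libraries, and that with CH 4 without DMSO replicate 2. With CH the complex IV factor CMC2 fell and COX18 rose, of 23 tested, and the complex V factor TMEM70 fell and TMEM242 rose, of 5. Of the complex IV list 0 rose without CH replicate 1 and 2 without DMSO replicate 1, Kyn replicate 1, Kyn replicate 2 or CH replicate 2, while 4 fell without CH replicate 3 and 2 without DMSO replicate 1. Of the complex V list 0 rose without DMSO replicate 1 or CH replicate 2. In the complex III list of 6, UQCC1 fell with CH (-0.21, adjusted p = 0.00039), and TTC19 and LYRM7 rose, with 1 higher in 7 of 12 fits that left out a library (each DMSO library, each CH library or Kyn replicate 2). Complex II assembly factors numbered 4, and 0 were called against DMSO with any compound, or 1 with TCDD without TCDD replicate 2. Of all genes 11.7% were called with TCDD, 0.294% with Kyn and 32.8% with CH.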

How the data were processed

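The authors deposited 1 table per library with whole-number counts of reads for 26485 gene symbols. Per the submitters' processing notes the authors used Trim Galore, STAR 2.7.2b, SAMtools 1.9 and HTSeq on hg38, while the protocol text names STAR 2.5.2b. The strand setting is not given in the sources used here, so overlapping and antisense genes may share reads. HTSeq's summary rows (reads in no gene were 6.59 to 8.48%) stayed out of totals and tests.

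The fit used edgeR 4.0.16 (limma 3.58.1, R 4.3.3): filterByExpr (minimum count 10), TMM scaling, 1 coefficient per group over all 12 libraries, and the quasi-likelihood F test with Benjamini-Hochberg adjustment over 13619 genes. The common coefficient of variation was 3.22%. CPM values use TMM-scaled totals. As alternatives, scaling used RLE factors or only library totals, the filter was dropped or set to at least 5 CPM in 3 libraries, and further fits used DESeq2 1.42.0, only the 2 groups compared, a replicate block, spline removal of length and GC trends per library (GENCODE 44 canonical transcripts, all 77 members matched), or left out each library. The fit was tested on simulated data.

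Counts of libraries in a group differed by 1.83 to 5.18 times Poisson variance, and 0 were merged. Named genes are, per comparison and complex, up to 5 called members of smallest p and the extremes, the 8 highest and 8 lowest members, up to 4 called genes per other list, and a fixed set of subunits. The members and lists were chosen with earlier results of these data known.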

Additional observations from a re-analysis of the deposited data

How the results depend on the processing

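Leaving out each library in turn gave 0 to 1 members higher and 2 to 12 lower for TCDD over DMSO, 0 to 0 in both directions for Kyn over DMSO, and 1 to 3 higher and 2 to 13 lower for CH over DMSO. For TCDD over Kyn it gave 0 to 0 higher and 2 to 26 lower, for TCDD over CH 1 to 4 higher and 6 to 12 lower, for Kyn over CH 5 to 20 higher and 0 to 1 lower, and for the joint test 14 to 32. Members lower with TCDD against DMSO numbered 12 without DMSO replicate 2, and 2 without DMSO replicate 1 or TCDD replicate 3; the 1 higher member was lost without DMSO replicate 3 or TCDD replicate 3. Members lower with CH against DMSO numbered 13 without DMSO replicate 2, 8 without CH replicate 3, and 2 without DMSO replicate 1, CH replicate 1 or CH replicate 2, and 1 was higher without DMSO replicate 3, CH replicate 2 or CH replicate 3. The joint test called 14 without TCDD replicate 3. With library totals alone CH over DMSO had 4 higher and 2 lower, and Kyn over CH 8 higher and 1 lower. With at least 5 CPM in 3 libraries CH over DMSO had 4 higher and Kyn over CH 1 lower. Without a low-count filter TCDD over Kyn had 24 lower, and with only the 2 groups compared TCDD over CH had 4 higher. With length and GC trends removed CH over DMSO had 11 lower, TCDD over CH 4 higher, Kyn over CH 24 higher and the joint test 39. The cause of these moves was not tested. The share of all genes called in these fits is not given, so the moves are not set against a background. Deviation correlations did not set libraries with the same replicate number apart (-0.055 to 0.037 over 18 pairs with the same number, -0.053 to 0.083 over 36 others). These pooled ranges cannot exclude a pairing between some of the groups. With a replicate block the counts higher and lower were 1 and 6 for TCDD over DMSO, 0 and 0 for Kyn over DMSO, 2 and 4 for CH over DMSO, 0 and 12 for TCDD over Kyn, 2 and 10 for TCDD over CH, 15 and 0 for Kyn over CH, and 22 in the joint test. Of the 53 calls of members in the 5 comparisons with calls, 14 were kept in every fit with a library left out and 39 were lost in at least 1; over all 636 such values 524 kept the call and 112 lost it. Under the other settings 30 calls were kept throughout and 23 lost at least once (390 and 34 of 424 values). In these fits 0 values reversed.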
